A study of Mus musculus with 2 samples.

Results

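The mouse miRNAs numbered miR-5099 to miR-5136 were examined in exosomes of bone marrow-derived mesenchymal stem cells. The members were selected on their names alone, as every miRNA of the array from miR-5099 to miR-5136, with any letter or arm. The range itself was chosen by looking at signals of these same arrays, in which miR-5100, miR-5112 and miR-5119 had already stood out, so their values are given as a description with no test. The block held 37 of the 1881 miRNAs of the array, with 77 of its 4415 probes and 1110 of its 56430 spots. At the ends of the range, miR-5099 was detected and miR-5136 was not, and the nearest miRNAs outside it on the array, miR-5098 and both arms of miR-5615, were not detected on either array.

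BMSCs, multipotent stromal cells of the marrow, came from C57BL/6 mice and were purchased. They were grown in medium whose serum had been depleted of exosomes, either in normoxia or at 0.2% oxygen, and exosomes were isolated from the medium after 72 h. Exosomes are small vesicles that cells release with RNA inside. The comparison asks which exosomal miRNAs differ when the releasing cells lack oxygen. The series holds 1 array for each condition, so no spread between cultures can be computed, no p-value is given, and every SD or SE here covers only the repeated spots of a probe within an array. The arrays shared a slide, and array position and condition cannot be told apart.

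A miRNA is a short RNA that guides Argonaute proteins to messenger RNAs, mostly by pairing of its seed, bases 2 to 8. miRNA names are serial numbers, given in the order in which sequences were registered. Low numbers include the conserved, abundant miRNAs of the first cloning studies, and high numbers come mostly from deep sequencing of small RNA. For many late entries no function is established, and some overlap other classes of small RNA or repeats.

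The mature sequences of the 8 detected members that could be matched are shown 5′ to 3′ with the seed in capitals, because they show which RNA each name stands for. They are RefSeq entries on GRCm38.p6. A match was found for 31 of the 37 members and for 1608 of the 1881 miRNAs of the array.
miR-5100: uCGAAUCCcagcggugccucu
miR-5106: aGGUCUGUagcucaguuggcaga
miR-5108: gUAGAGCAcuggaugguuu
miR-5110: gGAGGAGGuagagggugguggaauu
miR-5119: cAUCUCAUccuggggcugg
miR-5121: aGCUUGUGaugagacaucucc
miR-5126: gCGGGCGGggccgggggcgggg
miR-5128: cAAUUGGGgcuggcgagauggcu

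The other detected members are miR-5099, miR-5107-5p and miR-5112, and the other unmatched ones are miR-5107-3p, miR-5127 and miR-5134-5p. The 8 sequences carried 8 different seeds. Only miR-5106 and miR-5110 shared a seed with any other miRNA of the array, miR-6897-3p and miR-7081-5p respectively, and neither of those was detected. A shared seed was found for 16.1% of the matched members and for 27.1% of all matched miRNAs.

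The loci of 7 of the detected members are given here. They lay apart from each other, each within the span of a gene. Whether a locus is exonic or intronic, and on the gene's own strand or not, was not read here. miR-5100 lies at chr11:60728698-60728718 on the plus strand within Mief2, which codes for a mitochondrial dynamics protein. miR-5119 lies at chr11:98262638-98262656 on the plus strand within Cdk12, a transcription kinase gene. miR-5110 lies at chr11:85760675-85760699 on the minus strand within Bcas3. miR-5108 lies at chr10:61774795-61774813 on the plus strand within Macroh2a2, a histone variant gene. miR-5126 lies at chr1:84695890-84695911 on the plus strand within Dner, which codes for a Notch ligand. miR-5128 lies at chr2:37688212-37688234 on the minus strand within Strbp. miR-5121 lies at chr7:45126925-45126945 on the minus strand within Rpl13a, a ribosomal protein gene, and also within Snord33, the snoRNA that this gene hosts.

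Signals are given in scanner intensity units after background subtraction, so a probe dimmer than its background is below 0. A miRNA was called detected where over 50% of the unflagged spots of a probe were well above background. The dimmest detected probe of an array stood at 14.5 in normoxia and 13.5 in hypoxia. Outlier flags removed 16 of the 1110 member spots in normoxia and 25 in hypoxia, and no member spot was saturated. The scanner software put the spread between repeated spots and the labelling spike-in of the hypoxia array outside its accepted range, with a median CV of 15.8% against 9.68% in normoxia. The hypoxia miRNA miR-210-3p, as a check of the labels, stood at 176 ± 13.4 (SD over n = 15 spots) in normoxia and 5312 ± 649 (SD over n = 15 spots) in hypoxia. Of 10 mesenchymal miRNAs, 9 were detected on both arrays, and miR-145a-5p on neither.

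In normoxic exosomes 11 of the 37 members (29.7%) were detected, beside 12.0% of all miRNAs of the array. In hypoxic exosomes 7 members (18.9%) were detected, beside 10.6% of all. The same 7 members were detected on both arrays, 4 in normoxia only, none in hypoxia only, and 26 on neither. The 4 seen in normoxia only were miR-5099, miR-5108, miR-5110 and miR-5112, which is 36.4% of the 11 members detected at all, beside 18.4% of all detected miRNAs (45 of 244). By order of signal among the detected miRNAs, miR-5126 was the brightest member, placed 29 of 225 in normoxia and 39 of 199 in hypoxia. None of the other members was among the first 45 on either array.

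**Figure D1:**
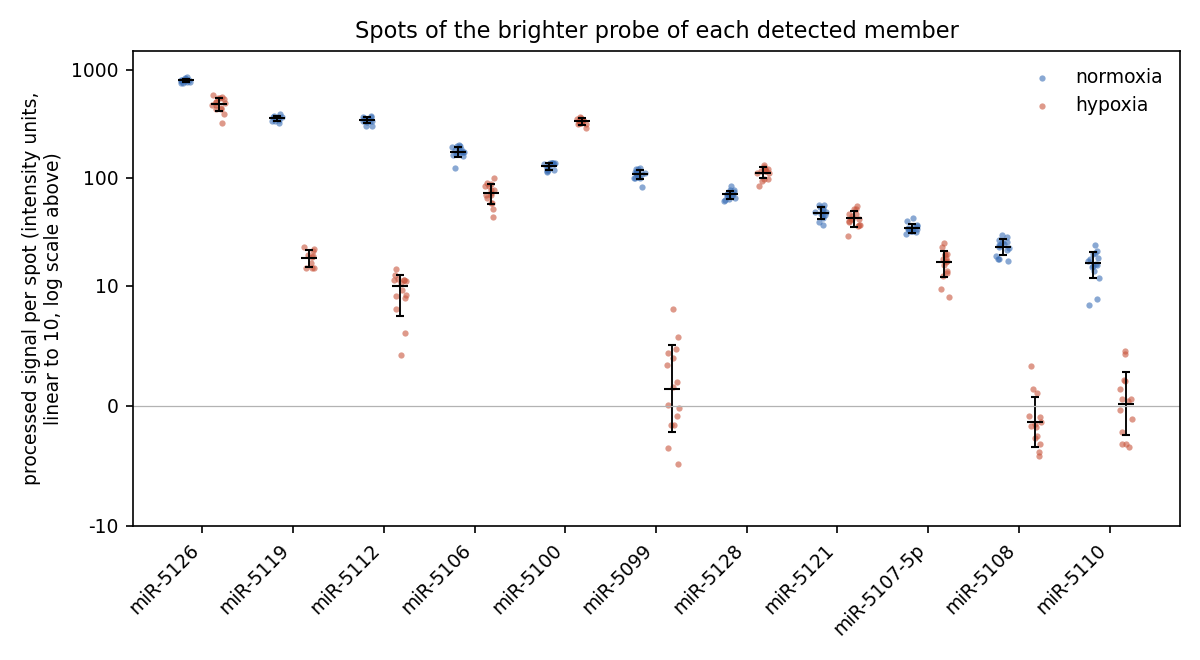
Processed signal of every unflagged spot (intensity units, linear to 10 and logarithmic above) for the brighter probe of each of the 11 detected members, normoxia beside hypoxia, with black bars for the mean and SD. The spots of miR-5100 sit at 114 to 138 in normoxia and 287 to 368 in hypoxia, those of miR-5112 at 299 to 373 and 4.27 to 14.2, and those of miR-5121 overlap.

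Fold differences are hypoxia over normoxia on the log2 scale after quantile normalization, averaged over the probes of a miRNA that were detected on both arrays. Of the 180 miRNAs detected on both, 18.3% were at least 2-fold higher in hypoxia and 10.0% at least 2-fold lower. Of the 7 members among them, 2 were higher by that much (miR-5100 and miR-5128), 1 was lower (miR-5119) and 4 differed by less than 2-fold. Differences of 3 members lay above 0 and of 4 (57.1%) below, beside 42.8% below 0 for all 180. The median of the 7 was -0.41 on the log2 scale, beside 0.17 for all 180. With so few members these shares describe the block and call nothing particular to it.

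**Figure D2:**
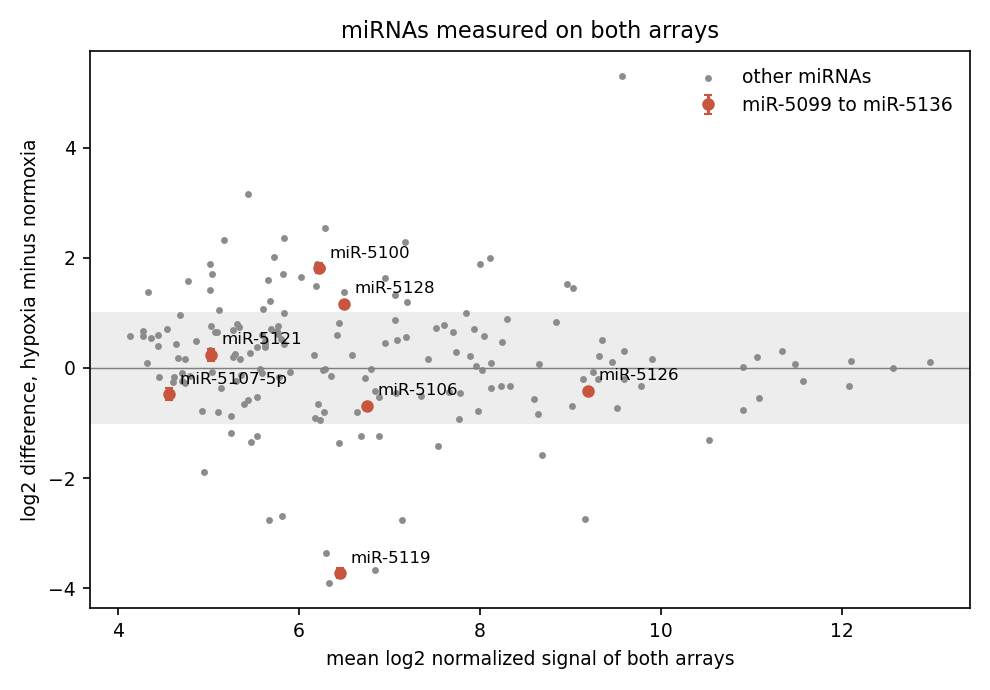
Log2 difference (hypoxia minus normoxia) against the mean log2 normalized signal of both arrays for the 180 miRNAs detected on both, the 7 members in red with bars for the SE over spots and the range under 2-fold shaded. miR-5100 lies at 1.82 and miR-5119 at -3.73.

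miR-5100, which the study went on to test in lung cancer cells, was higher in hypoxia. The study named it among the miRNAs increased on its array. It also reported miR-5100 as higher in hypoxic BMSC exosomes by quantitative PCR, run in triplicate. The spots of its brighter probe stood at 114, 133 and 138 (lowest, median and highest) in normoxia and at 287, 338 and 368 in hypoxia, so the arrays did not overlap. Their means were 128 ± 9.23 (SD over n = 15 spots) and 332 ± 22.1 (SD over n = 13 spots). The second probe was dimmer, at 17.1 ± 6.0 and 46.0 ± 11.4, and its spots overlapped in part. The log2 difference over both probes was 1.82 ± 0.082 (SE over spots), 3.52-fold, the 12th highest of the 180. Between these arrays the brighter probe exceeded the dimmer 7.48 ± 0.69 times (SE) in normoxia and 7.22 ± 0.48 times in hypoxia, so both probes moved by about the same factor. From 91st of 225 in normoxia, miR-5100 was 47th of 199 in hypoxia.

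miR-5128 was also higher in hypoxia, from 1 probe. Its spots stood at 61.5, 70.3 and 83.4 in normoxia and at 83.9, 116 and 132 in hypoxia, so the highest normoxic and lowest hypoxic spots nearly touched. The means were 70.1 ± 6.0 and 112 ± 12.8 (SD over n = 15 spots each), and the log2 difference was 1.17 ± 0.053 (SE over spots), 2.25-fold. It was past 2-fold under 3 of 6 scalings of the arrays. The dimmer probe was detected on neither array, at 7.82 ± 3.23 and 12.3 ± 3.31, so the difference has no second probe behind it.

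miR-5119 was lower in hypoxia on all 3 of its probes. The brightest had spots at 323, 364 and 388 in normoxia and at 14.5, 18.6 and 23.1 in hypoxia, where 7 of 10 spots were above background. Its means were 354 ± 21.2 (SD over n = 9 spots) and 18.2 ± 3.16 (SD over n = 10 spots). The other probes went from 170 ± 7.98 to 6.37 ± 4.65 and from 77.0 ± 6.69 to 3.32 ± 3.02, and neither was detected in hypoxia. The difference, from the brightest probe, was -3.73 ± 0.084 (SE over spots), 13.2-fold lower and the 2nd lowest of the 180. Its place among detected miRNAs was 49 of 225 in normoxia and 181 of 199 in hypoxia.

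miR-5112 and miR-5099 were bright in normoxia and not well above background in hypoxia, so only a bound can be given, set by the dimmest detected signal of the hypoxia array. The spots of miR-5112 stood at 299, 348 and 373 in normoxia and at 4.27, 10.6 and 14.2 in hypoxia, with means of 342 ± 21.4 and 9.95 ± 2.50 (SD over n = 15 spots each). Its second probe went from 167 ± 20.0 to 6.02 ± 4.76. miR-5112 was at least 18.6-fold lower in hypoxia. The study named it among the miRNAs that its array showed as decreased by more than 2-fold. By the software's summed signal and call, miR-5112 was detected on both arrays, at -5.68 on the log2 scale. For miR-5099 the spots stood at 81.4, 111 and 124 in normoxia and at -4.83, 1.54 and 8.05 in hypoxia, with means of 108 ± 10.9 and 1.42 ± 3.63 (SD over n = 15 spots each). It was at least 5.56-fold lower in hypoxia. Its second probe was detected on neither array, at 4.01 ± 3.65 and -2.87 ± 2.56. These were 2 of the 4 members seen on only 1 array, all 4 in normoxia. Over the whole array 64 miRNAs were seen on only 1 array, 45 of them in normoxia only. Only those 45 could have a bound lower in hypoxia, and for 12 of the 45 it was at least 2-fold. The like count for the members is 2 of 4. Over all 64 the share was 18.8%, but it includes miRNAs that could not have such a bound.

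miR-5108 and miR-5110 were near the detection limit in normoxia. miR-5108 stood at 22.9 ± 3.87 (SD over n = 15 spots) in normoxia and -1.34 ± 2.09 (SD over n = 14 spots) in hypoxia, which gives a bound of at least 1.22-fold lower. miR-5110 stood at 16.2 ± 4.29 (SD over n = 15 spots) with 8 of 15 spots above background in normoxia, and at 0.178 ± 2.61 (SD over n = 14 spots) in hypoxia. No fold can be given for it, since its bound was under 1-fold.

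Among the members detected on both arrays, 4 differed by less than 2-fold. miR-5126, the brightest member, had spots at 757, 801 and 862 in normoxia and at 320, 494 and 580 in hypoxia. Its brighter probe averaged 798 ± 30.3 (SD over n = 14 spots) and 483 ± 69.6 (SD over n = 15 spots), and the second probe 732 ± 43.5 and 491 ± 53.5. The spots of neither probe overlapped between the arrays, yet the normalized difference was only -0.41 ± 0.036 (SE over spots). It turned to 0.28 when the arrays were scaled to the 75th percentile of all probes. With 9.96% and 8.59% of all spots above background in normoxia and hypoxia, that percentile falls among undetected probes. Under the other scalings the difference lay between -0.65 and -0.18, so its direction was not the same under every scaling.

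miR-5106 had spots at 124, 174 and 200 in normoxia and at 43.2, 72.8 and 100.3 in hypoxia, again without overlap. Its probes averaged 175 ± 19.0 and 142 ± 12.3 in normoxia and 72.4 ± 15.4 and 62.9 ± 9.71 in hypoxia. The difference was -0.69 ± 0.056 (SE over spots), and it lay below 0 under all 6 scalings, past 2-fold under 2 of them. miR-5107-5p stood at 34.3 ± 3.17 and 16.6 ± 4.49 (SD over n = 15 spots each), with spots at 30.3, 33.3 and 42.0 in normoxia and at 9.07, 16.8 and 25.1 in hypoxia. Its difference was -0.48 ± 0.11 (SE over spots), from that probe alone. In hypoxia 10 of its 15 spots were above background, and it was placed 191 of 199 detected miRNAs. The second probe, at 13.1 ± 3.95 and 4.16 ± 3.43, was detected on neither array. The opposite arm, miR-5107-3p, was detected on neither array, with probe means of at most -2.13 in normoxia and -0.60 in hypoxia, so within this hairpin only the 5p arm was seen.

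miR-5121 had spots at 36.6, 47.9 and 56.4 in normoxia and at 28.7, 41.4 and 54.9 in hypoxia, and the arrays overlapped. The means of its brighter probe were 47.7 ± 5.94 (SD over n = 14 spots) and 42.3 ± 6.94 (SD over n = 15 spots). The normalized difference was 0.24 ± 0.10 (SE over spots). It ranged from -0.35 to 0.58 over the scalings, so no direction can be given. The ratio of its probes was 1.77 ± 0.11 in normoxia and 2.24 ± 0.29 in hypoxia.

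**Figure D3:**
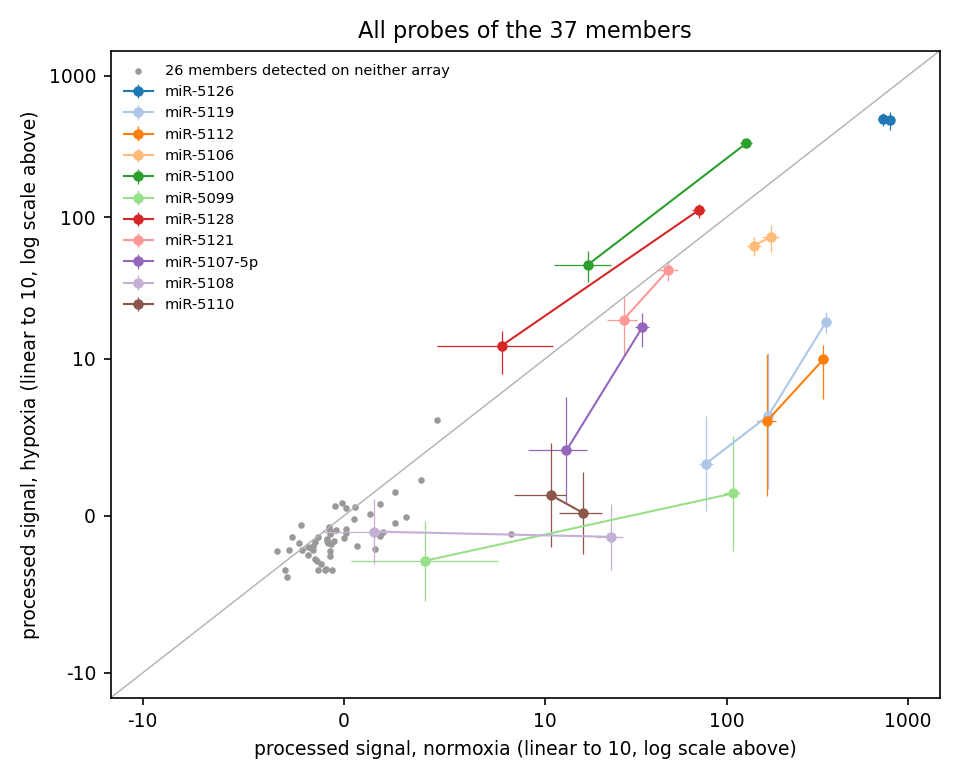
Mean processed signal (intensity units, linear to 10 and logarithmic above) of all 77 probes, hypoxia against normoxia, with the line of equal signal; coloured points joined by lines are the probes of 1 detected member with the SD over spots, grey points those of the 26 undetected members. All probes of miR-5112 and miR-5119 lie below the line and both of miR-5100 above it, at 332 against 128 for its brighter probe.

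Over 6 scalings the difference of miR-5100 ranged from 1.40 to 2.33, that of miR-5128 from 0.67 to 1.60, that of miR-5106 from -1.22 to -0.30, that of miR-5107-5p from -1.04 to -0.12 and that of miR-5119 from -4.28 to -3.36. The bounds ranged from -4.66 to -3.73 for miR-5112 and from -3.0 to -2.07 for miR-5099. The upper end of each range came from the 75th percentile of all probes, which falls among undetected probes. The median of all 180 miRNAs itself moved, from -0.27 without scaling to 0.66 with the 75th percentile of all probes, and the median of the members from -0.65 to 0.28. All scalings but the quantile one shift every miRNA by the same amount, so they cannot change the order of the members. When every spot had to be above background, the members' median was 0.29 and that of all miRNAs 0.21, the reverse of the order above. This changes the detection rule and not the scaling. It left miR-5119 with only a bound and miR-5107-5p with no value, and no member's difference changed sign.

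**Figure D4:**
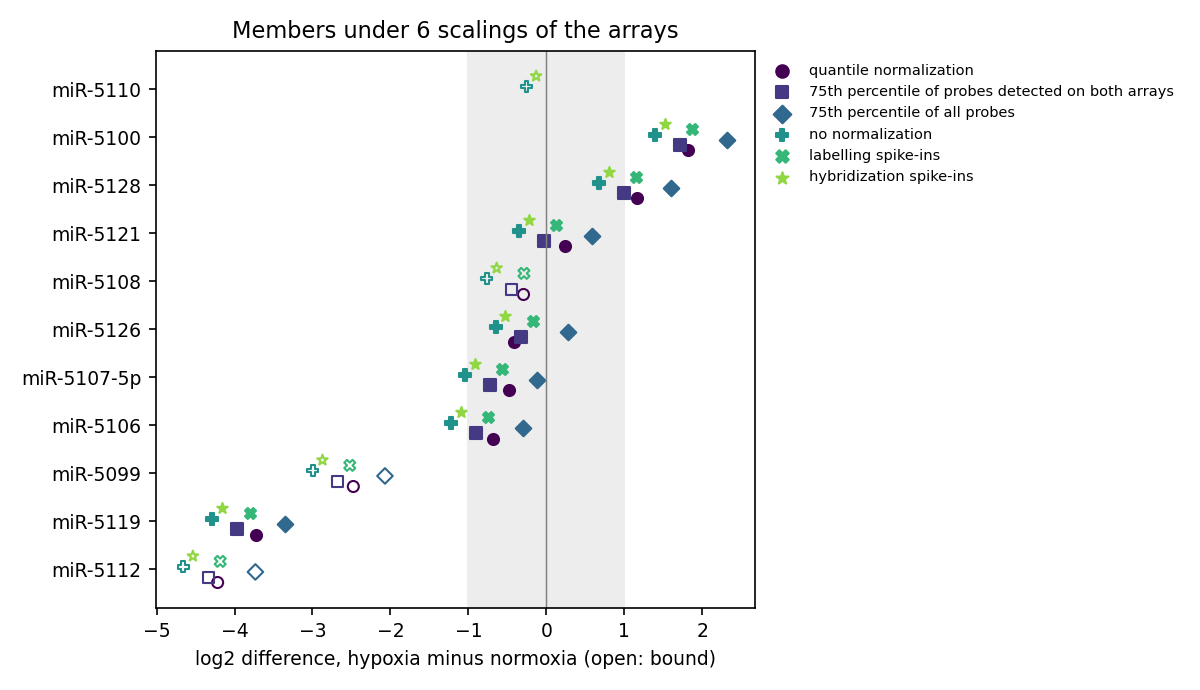
Log2 difference (hypoxia minus normoxia) of each detected member under 6 scalings of the arrays, with open symbols for bounds and the range under 2-fold shaded. miR-5100 stays at or above 1.40 and miR-5119 at or below -3.36, while miR-5121 and miR-5126 lie on both sides of 0.

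The spots of each probe were split by alternating order, into odd and even ones, and by position on the array, into 4 blocks. Odd and even spots gave 1.66 and 1.84 for miR-5100, 1.18 and 1.15 for miR-5128, -3.67 and -3.82 for miR-5119, and -0.64 and -0.77 for miR-5106. They were 0.24 and 0.23 for miR-5121 and -0.35 and -0.45 for miR-5126. The widest gap was that of miR-5107-5p, at -0.60 and -0.16. Within 4 blocks of the array and without scaling, the difference ranged from 1.36 to 1.43 for miR-5100, from 0.58 to 0.75 for miR-5128 and from -4.35 to -4.25 for miR-5119. For miR-5121 the blocks ranged from -0.82 to -0.12. These splits share the same RNA and measure the spread within an array only.

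The 26 members detected on neither array were at background. Their 54 probes averaged between -3.33 and 8.31 in normoxia and between -3.92 and 6.11 in hypoxia, and 36 and 45 of them were below 0. Only 1 of 770 spots was above background in normoxia and 1 of 766 in hypoxia. The highest were miR-5113, at 4.63 in normoxia and 6.11 in hypoxia, miR-5130, at 8.31 and -1.16, and miR-5118, at 3.82 and 2.27. All 3 lay under the dimmest detected probe of their array, so a difference was not detectable there.

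By number, the share of miRNAs detected in normoxia was 16.4% of the 799 up to miR-999, 11.9% of the 126 from there to miR-2999, 10.9% of the 156 from there to miR-5098, 29.7% of the 37 members and 5.65% of the 743 above them. A further 20 miRNAs, whose names hold no such number, were left out. In hypoxia the shares were 15.9%, 10.3%, 7.05%, 18.9% and 4.17%. The members thus had the highest share of the 5 bands on both arrays, as a description, since the range was proposed with some of these signals known. Detection in normoxia only made up 11.2% of the detected miRNAs up to miR-999, and 13.3%, 42.1%, 36.4% and 32.6% in the bands that follow, so the members resembled the bands of similar or higher number in this. The median difference was 0.23, -0.27, 0.22, -0.41 and -0.099 in the same order.

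**Figure D5:**
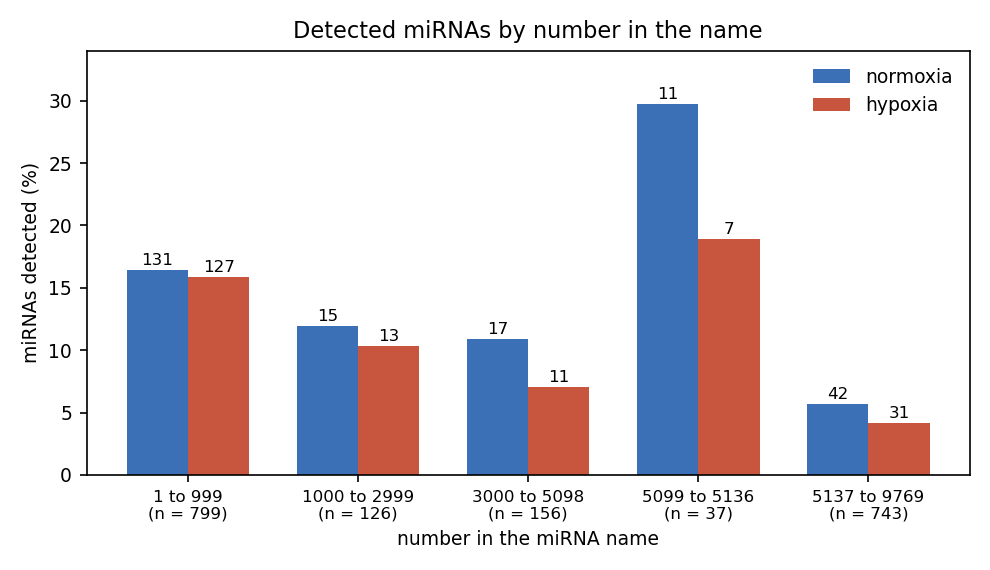
Percent of the miRNAs detected in normoxia and in hypoxia for 5 bands of miRNA number, with the number detected above each bar and the size of the band (n) below it. The band of the members stands at 29.7% and 18.9%, above the band of the lowest numbers at 16.4% and 15.9%.

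In their letters the detected members were mixed. The share of G and C was 100% in miR-5126, 63.2% in miR-5119, 61.9% in miR-5100, 60.9% in miR-5128 and 47.4% in miR-5108. The median was 58.4% for the 8 detected members with a sequence, 57.9% for the 23 not detected and 52.2% for 1608 miRNAs of the array. The run GGGG occurred in 7 of 31 members (22.6%), beside 11.3% of the array, and among the detected ones in miR-5119, miR-5126 and miR-5128, whose differences pointed both ways. Words that have been linked to the sorting of miRNAs into exosomes were searched on the miRNA strand. GGAG occurred in 6 of 31 members, beside 14.4% of the array, and among the detected ones in miR-5110 only. CCCU occurred in 2 of 31, beside 11.7% of the array, and in no detected member. A match is a description of letters only.

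Some members carry letters that also occur in other small RNAs. These words were picked after the sequences had been seen. UCGAAUCC, letters of the tRNA B box, occurred in miR-5100 and in no other of the 1608 sequences (0.0622%), and UAGCUCAG, letters of the tRNA A box region, in miR-5106 alone (0.0622%). Parts of both words also occur in undetected miRNAs, in the stretches CGAAUCCCA of miR-3968 and AGCUCAGUUGG of miR-3961. miR-5100 and miR-5106 differed in opposite directions, 1.82 and -0.69. AGAUGGCU, letters found near the start of B2 repeats, occurred in miR-5128 and in miR-3473a, miR-3473b and miR-3473e (0.249%). Of these, miR-3473a stood at 51.2 ± 4.80 and 101 ± 11.6, a difference of 1.50 ± 0.055 (SE over spots). miR-3473b stood at 386 ± 30.8 and 827 ± 132, a difference of 1.44 ± 0.039 (SE over spots). miR-3473e was detected in hypoxia only, at 16.5 after 7.34 in normoxia. All 4 miRNAs with this word among the 1608 matched sequences had the brighter signal in hypoxia, and no test of this was made. Of the 180 miRNAs detected on both arrays, 102 had a normalized difference above 0. miR-3473f and miR-3473g, which were not among the 4, had differences of -0.59 and -0.02. UAAGAGCA, other letters of B2 repeats, occurred in miR-5124a alone, which was detected on neither array.

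For miR-5119, miR-7686-5p shared the longest stretch, the 11 bases CCUGGGGCUGG, and stood at 22.5 and 18.7 with a difference of 0.40 ± 0.094 (SE over spots) that turned to -0.27 without scaling, so no direction can be given for it. miR-3961, which shares the 11 bases AGCUCAGUUGG with miR-5106, was not detected on either array. Nor was miR-5616-3p, which shares the 11 bases CUUGUGAUGAG with miR-5121.

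Of 6 markers of blood cells, only miR-451a was measured as at least 2-fold lower in hypoxia. In all, 3 were detected in normoxia and 1 in hypoxia. Their summed signal was 503 in normoxia and 35.4 in hypoxia, most of it from miR-451a. This erythroid miRNA went from 448 to 26.5, a difference of -3.66. miR-144-3p and miR-223-3p were detected in normoxia only, with bounds of just -0.21 and -0.32 on the log2 scale. miR-486a-5p, miR-142a-3p and miR-150-5p were detected on neither array. The summed signal of the mesenchymal list was 39736 in normoxia and 33905 in hypoxia, most of it from miR-21a-5p, miR-22-3p and miR-29a-3p. Dimmer miRNAs of that list differed both ways, such as miR-214-3p at 1.20 and miR-125b-5p at -0.32. Whether other cells had a part in the values of miR-5099, miR-5108, miR-5110, miR-5112 and miR-5119 was not tested.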

How the data were processed

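RNA from exosomes of normoxic and hypoxic BMSCs was hybridised to 1-colour Agilent mouse miRNA arrays, 1 array per condition. Feature Extraction 11.5.1.1 was used by the authors for image analysis, per the file headers. It gave the deposited intensity, a linear processed signal per spot after background and trend subtraction, without normalization between arrays. The deposited value table equals it (largest difference 0). The labels describe reverse transcription from a DNA primer, whereas the study's methods name Agilent's miRNA labelling kit.

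Control spots and outlier flags were left out, spots were averaged by probe, and probe means of both arrays were quantile normalized (numpy 2.4.6, pandas 2.3.3). The 6 scalings were quantile normalization, the 75th percentile of all probes or of those seen on both arrays, the labelling or the hybridisation spike-ins, and none. SE values came from repeated spots. Bounds set the brighter probe against the lowest detected signal of the other array or the dim probe itself, whichever was higher. All 11 detected members were named, with the 3 brightest undetected ones and any arm partner of a detected member. Scripts were tested on simulated data. normexp used limma 3.58.1 with an offset of 50. The members, lists and words were chosen with earlier results of these data known. The locus of miR-5106 is not reported here.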

Additional observations from a re-analysis of the deposited data

How the results depend on the processing

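No paired analysis was possible because there was 1 array per condition, and for the same reason no replicate could be left out. Members detected in normoxia, 11 as reported beside 225 of all miRNAs, were 10 when every spot had to be above background (all 198). They were 12 when any such spot sufficed (269). In hypoxia, 7 members beside 199 as reported became 5 (152) and 7 (254) under these rules. With the software's summed signal and call they were 11 (261) in normoxia and 8 (226) in hypoxia. Under 12 alternatives, the count of members at least 2-fold higher in hypoxia, 2 as reported beside 33 of all miRNAs, was 1 with the 75th percentile of the probes seen on both (all 29), without scaling (20), with the hybridisation spike-in (25) and with signals summed over probes (25), and 0 with normexp (11). The count at least 2-fold lower, 1 beside 18 as reported, was 3 without scaling (all 36), 2 with the hybridisation spike-in (30), 4 with summed signals (50) and 0 when every spot had to be above background (9). The count lower by a bound, 2 beside 12 as reported, was 1 with normexp (all 1) and 5 when any spot above background sufficed (32). The median difference, -0.41 beside 0.17 as reported, was 0.28 with the 75th percentile of all probes (all 0.66), -0.099 with normexp (0.084), 0.29 when every spot had to be above background (0.21) and -0.94 with summed signals (-0.26). Where a count of members moved, the count over all miRNAs moved the same way. The medians under normexp moved in opposite directions, up for the members and down for all miRNAs.

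normexp, whose added offset shrinks log2 differences that rest on dim signals, gave 0.95 for miR-5100, 0.72 for miR-5128 and -2.15 for miR-5119. Its bounds were -2.21 for miR-5112 and -0.96 for miR-5099. Of 107 recomputed values for 10 members, 58 lay within the spread of spots and 49 did not. A change of sign was seen for miR-5121 under 4 alternatives and for miR-5126 under 1. Differences that rest on signals near 14.5 in normoxia or 13.5 in hypoxia, the dimmest detected probes, have the least depth behind them. With 1 array per condition no difference here has a replicate array behind it.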
